A study of Mus musculus with 24 samples.

Results

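The suppressor of cytokine signaling family was taken as the 8 genes *Socs1*, *Socs2*, *Socs3*, *Socs4*, *Socs5*, *Socs6*, *Socs7* and *Cish*, matched by gene name among the 24340 genes that the 6 deposited comparison tables share, and all 8 were found. The tables come from RNA-seq of the striatum of R6/1 mice, a Huntington's disease model whose hemizygous transgene expresses exon 1 of human *HTT* with an expanded CAG repeat, and of wild type littermates, all male and on a C57BL/6J background. The 24 libraries fall into WT-vehicle (5 libraries), R6/1-vehicle (6), WT-RGFP109 (6) and R6/1-RGFP109 (7). RGFP109, an inhibitor of the histone deacetylases HDAC1 and HDAC3, was given intraperitoneally at a dose of 30 mg/kg in 5 weekly injections over 3 weeks. Vehicle mice were injected with dimethyl sulfoxide in saline. Mice were 11 to 14 weeks old at the first injection and 14 to 17 weeks old at sacrifice. In all 4 groups sacrifice came 18 hours after the last injection. Each table holds 1 authors' value per gene and group in FPKM, a count of mapped fragments scaled by exon length and by the size of the library, so the values below carry no spread between mice and no replicate check, no comparison was tested, and the depth behind a value is unknown.

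The proteins of this family are feedback inhibitors of cytokine receptors. A cytokine or a hormone such as growth hormone or prolactin brings together receptor chains that carry JAK kinases, the JAKs phosphorylate STAT transcription factors, and the STATs switch on target genes, among them *Cish*, *Socs1*, *Socs2* and *Socs3*, whose products then dampen the same receptors. Every member has an SH2 domain, which binds phosphorylated tyrosines, and a C-terminal SOCS box, which recruits elongins B and C and a cullin to mark bound proteins with ubiquitin. SOCS1 and SOCS3 can also inhibit JAK kinases directly, CIS and SOCS2 act mainly on growth hormone, prolactin and erythropoietin type signals through STAT5, and SOCS4 to SOCS7 are less studied and have been linked to growth factor and insulin receptors.

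Activated STAT dimers bind a short palindrome, the GAS element, here searched as TTCNNNGAA, which reads the same on both strands. RefSeq promoter sequences of GRCm38.p6, the build that mm10 names, covering 250 bases before and 50 after each annotated start, were matched for 4 of the 8 members, *Cish*, *Socs1*, *Socs3* and *Socs4*. The 30 bases around the matches are shown for *Cish* and *Socs3*, the only ones of these 4 genes with a match. Capitals mark the matches, and each sequence is written in the direction of its gene.
Cish, chr9:107296654-107296683, plus strand: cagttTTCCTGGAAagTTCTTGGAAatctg
Socs3, chr11:117969502-117969531, minus strand: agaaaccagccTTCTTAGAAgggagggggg
The *Cish* window holds 2 matches, which end 22 and 11 bases before the start of the gene in the deposited tables and lie at and just after the RefSeq start. The single *Socs3* match ends 146 bases before the start of that gene. The windows of *Socs1* and *Socs4* held no match. Of all 32851 promoter windows, 8.3% held at least 1 match and 0.457% held 2 or more. The cyclic AMP response element TGACGTCA, also its own reverse complement, was in none of the 4 windows and in 1.79% of all windows. A match describes letters in the window and is not evidence of binding.

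The members differed widely in level, and 2 of them made up most of the family's transcripts. In WT-vehicle, *Socs5* (chr17:87107679-87137588, mm10) was highest at 36.1 FPKM and *Socs7* (chr11:97362551-97398542) followed at 22.9 FPKM. *Cish* (chr9:107296689-107301961) and *Socs2* (chr10:95411490-95416857) stood at 4.84 and 4.64 FPKM. *Socs4* (chr14:47277143-47291591) and *Socs6* (chr18:88867880-88894207) stood at 2.26 and 2.08 FPKM. The lowest were *Socs3* (chr11:117966087-117969366) at 1.24 FPKM and *Socs1* (chr16:10783809-10785536) at 0.708 FPKM, so the family spanned a 51-fold range on this length-scaled measure. *Socs5* and *Socs7* together gave 78.9% of the summed family FPKM in WT-vehicle and 81.7% in R6/1-vehicle, and 80% and 81.9% in the treated wild type and R6/1 mice. Which neighbours in this order differ beyond the spread between mice cannot be read from 1 value per group. *Socs4* was above *Socs6* in both vehicle groups and not in WT-RGFP109 (2.17 and 2.21 FPKM), and *Cish* was above *Socs2* in every group. The locus of *Cish* overlaps 2 genes on the opposite strand in GENCODE M21, the antisense RNA *Gm17041* and the pseudogene *Gm17040*. The strand setting of the counting is not given in the sources used here, so reads of *Cish* and of these genes cannot be told apart, whereas the other 7 loci overlap no annotated gene.

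**Figure D1:**
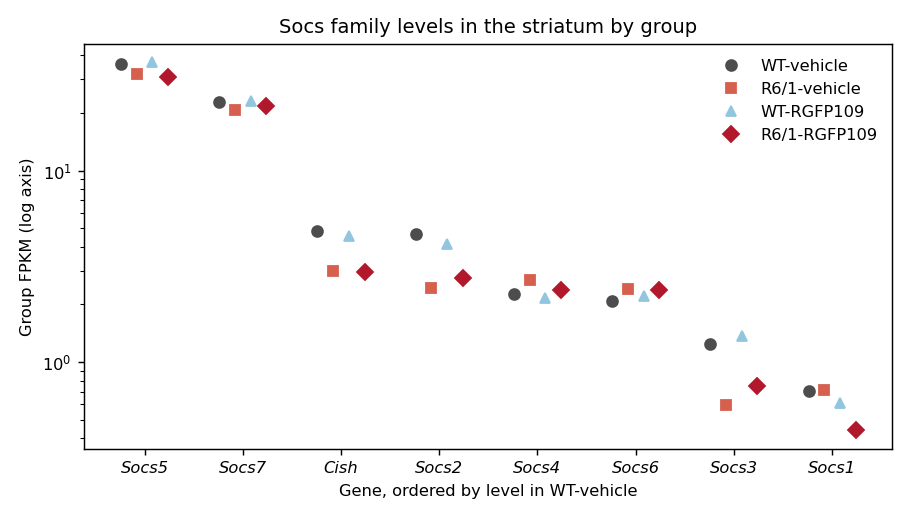
Group FPKM (log axis) of the 8 family genes, ordered by their level in WT-vehicle, with 1 symbol per group and no error bars because each group has 1 authors' value. *Socs2*, *Socs3* and *Cish* sit lower in both R6/1 groups than in both wild type groups, while *Socs5* and *Socs7* stay between 20.8 and 36.8 FPKM in every group.

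Whether the genotype moved the family was asked first in the vehicle groups. Of the 4 members best known as cytokine-inducible, *Socs2*, *Socs3* and *Cish* were lower in R6/1 mice and *Socs1* was near the wild type level, as were *Socs4* to *Socs7*. *Socs3*, the inhibitor of gp130 and leptin receptor signaling, stood at 1.24 FPKM in WT-vehicle and 0.597 FPKM in R6/1-vehicle, 51.8% lower. *Socs2*, which restrains growth hormone signaling, stood at 4.64 and 2.44 FPKM, 47.4% lower. *Cish*, the first discovered member and a STAT5 target, stood at 4.84 and 2.98 FPKM, 38.3% lower.

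On the log2 scale, after adding 0.05 FPKM to each value, these ratios of R6/1-vehicle over WT-vehicle were -0.99 for *Socs3*, -0.91 for *Socs2* and -0.69 for *Cish*. A log2 ratio beyond 0.5 in either direction is called past the fold below, over genes above 0.1 FPKM in at least 1 of the groups compared, and all 8 members passed that filter in every comparison. In the vehicle groups 3 of 8 members were past the fold and lower in R6/1, against 13.4% of 16972 genes, and none was higher, against 5.84%. The share of genes lower past the fold depended on level, with 24.2% of genes at a mean of 0.1 to 1 FPKM, where *Socs3* lay, and 11.9% of genes at 1 to 10 FPKM, where *Socs2* and *Cish* lay. Within these bands 8.86% of genes had a lower ratio than *Socs3*, 4.71% a lower ratio than *Socs2* and 7.66% a lower ratio than *Cish*. With 1 FPKM added instead of 0.05, which shrinks the ratios of low genes, *Socs2* (-0.71) and *Cish* (-0.55) stayed past the fold and *Socs3* (-0.49) did not. Of all genes 7.01% were lower past the fold at this setting.

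The remaining 5 members lay within the fold. *Socs5*, linked to the epidermal growth factor receptor and to interleukin 4 signaling, stood at 36.1 FPKM in WT-vehicle and 32 FPKM in R6/1-vehicle, a log2 ratio of -0.17. The ratio of *Socs7*, which binds the adaptors NCK and insulin receptor substrates, was -0.14, with 22.9 and 20.8 FPKM. *Socs4* and *Socs6* were on the other side of 0, at 0.24 (2.26 and 2.68 FPKM) and 0.20 (2.08 and 2.4 FPKM). *Socs1*, the inhibitor of interferon receptor signaling, differed least, with 0.708 and 0.718 FPKM and a ratio of 0.02. The median log2 ratio of the 8 members was -0.15, beside -0.019 over all genes compared. *Socs2*, *Socs3* and *Cish* together gave 14.3% of the summed family FPKM in WT-vehicle and 9.31% in R6/1-vehicle.

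**Figure D2:**
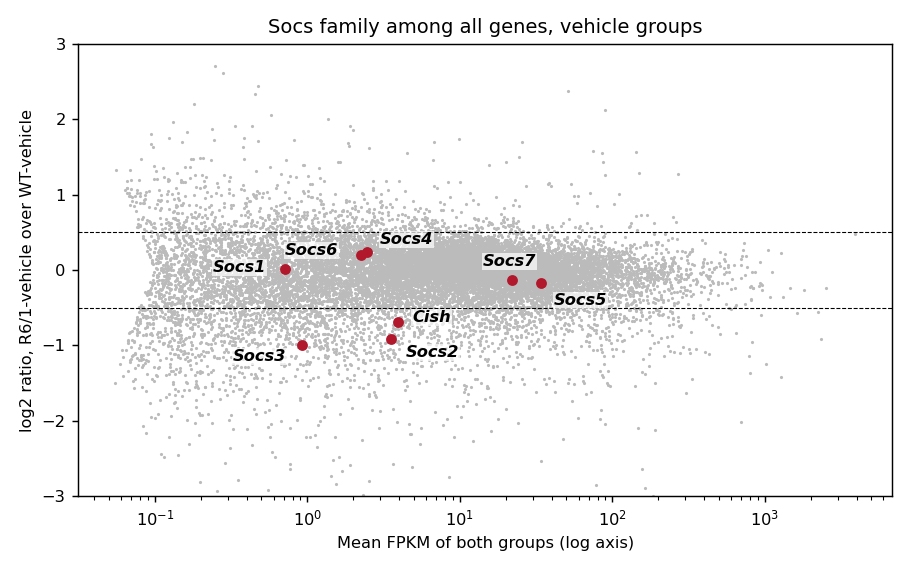
Log2 ratio of R6/1-vehicle over WT-vehicle against the mean FPKM of both groups (log axis), with 16740 genes that are above 0 in both groups in grey, the 8 family genes in red and dashed lines at 0.5 and -0.5. *Socs3*, *Socs2* and *Cish* lie under the lower line at -0.99, -0.91 and -0.69, the other 5 members lie between the lines, and 35 genes lie beyond the axis.

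The same genotype comparison in the RGFP109 groups used other mice. *Socs3* was at 1.37 FPKM in WT-RGFP109 and 0.752 FPKM in R6/1-RGFP109, a log2 ratio of -0.82. *Cish* was at 4.54 and 2.97 FPKM, a ratio of -0.60. For *Socs2* the values were 4.13 and 2.75 FPKM and the ratio -0.58. These same 3 genes were thus the members past the fold, all lower in R6/1, against 11.7% of 16954 genes, and none was higher, against 5.39%. Over the 16662 genes that passed the filter in both genotype comparisons, 7.74% were lower past the fold in both, as were 3 of the 8 members. With 1 FPKM added, the ratios in the RGFP109 groups were -0.45 for *Socs2*, -0.44 for *Socs3* and -0.48 for *Cish*, all within the fold. Of all genes 5.77% were lower past the fold at this setting.

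*Socs1* was the lowest member in these groups and stood at 0.613 FPKM in WT-RGFP109 and 0.439 FPKM in R6/1-RGFP109, a log2 ratio of -0.44, which is within the fold and in the band of 0.1 to 1 FPKM where 25.4% of genes had a lower ratio. With 1 FPKM added its ratio was -0.16, and its difference from the ratio in the vehicle groups was not tested. *Socs5* was at 36.8 and 30.9 FPKM (-0.25) and *Socs7* at 23.1 and 21.7 FPKM (-0.09). *Socs4* and *Socs6* were again slightly above 0, at 0.12 and 0.10. The median over the 8 members was -0.35, beside 0.000 over all genes.

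**Figure D3:**
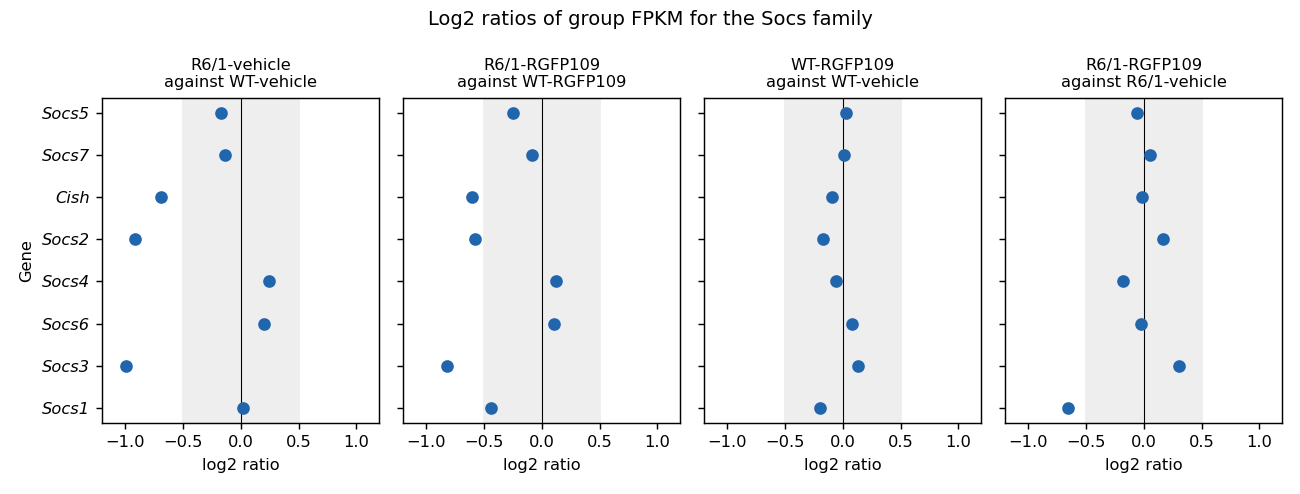
Log2 ratios of group FPKM (0.05 FPKM added) for the 8 family genes in 4 comparisons, 1 panel each, with the band from -0.5 to 0.5 shaded. *Socs2*, *Socs3* and *Cish* lie left of the band in both genotype panels, no gene leaves it in the panel of RGFP109 in wild type mice, and only *Socs1* (-0.66) leaves it in the panel of RGFP109 in R6/1 mice.

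The treatment comparisons asked whether RGFP109 moved the family within a genotype. In wild type mice no member passed the fold in either direction, against 4.92% of 16957 genes lower and 3.19% higher in WT-RGFP109. The values of this comparison come from its own table, in which WT-vehicle and WT-RGFP109 are scaled by 0.9658 and 0.9623 relative to the tables above. *Socs1* had the ratio farthest below 0, at -0.20 (0.683 FPKM with vehicle and 0.59 FPKM with RGFP109), and *Socs3* the one farthest above, at 0.13 (1.2 and 1.32 FPKM). *Socs2* was at -0.17 and *Cish* at -0.10. The abundant members differed least, with 0.02 for *Socs5* and 0.01 for *Socs7*, and *Socs4* and *Socs6* lay at -0.06 and 0.08.

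In R6/1 mice *Socs1* was the member farthest from 0 with treatment. In this comparison's own table, where both groups are scaled by 1.036 and 1.03, it stood at 0.744 FPKM in R6/1-vehicle and 0.453 FPKM in R6/1-RGFP109, 39.1% lower and a log2 ratio of -0.66. This was 1 of 8 members lower past the fold, against 3.14% of 16840 genes, with none higher, against 2.62%. At this low level 8.91% of genes of 0.1 to 1 FPKM were lower past the fold and 5.43% had a lower ratio than *Socs1*. With 1 FPKM added to each value instead of 0.05, the ratio of *Socs1* was -0.26.

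The 3 genes that were lower in R6/1 mice did not pass the fold with treatment. *Socs3* was at 0.618 FPKM in R6/1-vehicle and 0.775 FPKM in R6/1-RGFP109, 25.3% higher (log2 ratio 0.30), and *Socs2* at 2.53 and 2.83 FPKM, 12.1% higher (0.16). *Cish* was at 3.09 and 3.06 FPKM (-0.01). Thus in treated R6/1 mice *Socs3* and *Socs2* lay on the wild type side of the vehicle-treated R6/1 level and *Cish* lay on it. The size of these steps is unmeasured against the spread between mice. The R6/1-vehicle group enters both the genotype and the treatment ratio, and these 3 genes were picked for being low in it. That selection alone favours a step toward wild type. With 1 FPKM added, the treatment ratio was 0.13 for *Socs3* and 0.12 for *Socs2*. *Socs4* was at -0.18, *Socs5* at -0.06, *Socs6* at -0.02 and *Socs7* at 0.05.

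The treatment log2 ratio in R6/1 mice minus that in wild type mice was -0.46 for *Socs1*, 0.33 for *Socs2* and 0.17 for *Socs3*. For the other 5 members it lay between -0.12 and 0.08. This difference was not tested, since it rests on 4 group values per gene.

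Set against WT-vehicle, the R6/1-RGFP109 group had 4 of 8 members lower past the fold, against 13.8% of 16982 genes, and none higher, against 5.42%. These were *Socs2* (-0.75), *Cish* (-0.70), *Socs3* (-0.69) and *Socs1* (-0.64). *Socs1* and *Socs3* lay in the band of 0.1 to 1 FPKM, where 26.8% of genes were lower past the fold and 20.4% and 18.4% had a lower ratio than they did. With 1 FPKM added, 2 of 8 members were lower past the fold, *Socs2* and *Cish*, against 6.9% of all genes. Over genes with a mean of at least 1 FPKM they were 2 of 6 members, against 10.1% of genes. *Socs5* was at -0.23 and *Socs7* at -0.08, while *Socs4* (0.06) and *Socs6* (0.18) were on the other side. This comparison shares its groups with those above and adds no independent mice.

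The genes that act upstream of the family were read from lists of 18 ligands, 22 receptors, 4 JAK kinases and 6 STAT factors. Of the 18 ligands, 11 were above 0.1 FPKM in a vehicle group. The highest were *Ctf1*, at 1.43 FPKM in WT-vehicle and 1.89 FPKM in R6/1-vehicle (0.39), and *Cntf*, at 1.17 and 0.986 FPKM (-0.24), both cytokines of the interleukin 6 family. Of the 10 with values above 0 in both vehicle groups, 3 were lower past the fold in R6/1-vehicle, against 13.4% of all genes. None was higher, against 5.84%. Only *Lif* of these 3 had a mean of 0.1 to 1 FPKM, a band in which 24.2% of all genes were lower past the fold. *Lif*, of the same cytokine family, stood at 0.313 FPKM in WT-vehicle and 0.133 FPKM in R6/1-vehicle (-0.99), and *Prl* and *Il4* were at most 0.157 FPKM in any group. *Prl* and *Il4* passed the filter only through WT-vehicle, the group in which they were higher, so their direction was partly set by the filter. Growth hormone, *Gh*, stood at 0.879 FPKM in WT-vehicle and is listed at 0 in R6/1-vehicle.

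Among receptors, 4 of 22 were lower past the fold in R6/1-vehicle, against 13.4% of all genes, and 1 was higher, against 5.84%. The prolactin receptor *Prlr* was at 1.84 FPKM in WT-vehicle and 0.862 FPKM in R6/1-vehicle (-1.06), and the erythropoietin receptor *Epor* at 10.8 and 5.71 FPKM (-0.92). Both signal through JAK2 and STAT5, the route that CIS and SOCS2 restrain. The interleukin 10 receptor chain *Il10ra* was at 3.25 and 2.01 FPKM (-0.68) and the interleukin 11 receptor *Il11ra1* at 9.83 and 6.28 FPKM (-0.64). *Il13ra1*, a chain of the receptor for interleukins 4 and 13, went the other way, with 2.1 and 4 FPKM (0.91). The shared receptor chain *Il6st*, which encodes gp130 and is bound by SOCS3, stood at 15.6 and 17 FPKM (0.12), and the growth hormone receptor *Ghr* at 4.08 and 4.16 FPKM (0.03).

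With RGFP109 the genotype ratio of *Epor* was -1.05 and that of *Il13ra1* 0.56, both past the fold in the same directions as with vehicle. *Il10ra* and *Il11ra1* were at -0.48 each and no longer past it. The leptin receptor *Lepr*, which SOCS3 restrains, was at 0.473 FPKM in WT-RGFP109 and 0.26 FPKM in R6/1-RGFP109 (-0.75), past the fold, and at -0.41 with vehicle. *Prlr* stood at 0.463 FPKM in WT-RGFP109 and 0.427 FPKM in R6/1-RGFP109. Its log2 ratios of RGFP109 over vehicle were -1.89 in wild type and -0.95 in R6/1 mice. A list of 6 choroid plexus genes had summed levels of 43.7 FPKM in WT-vehicle and 24.6 in R6/1-vehicle, and 16.3 and 9.16 FPKM with RGFP109, none of the 6 being at 0 in any group. Their part in the *Prlr* values was not tested.

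The listed JAK and STAT genes, fewer in number, spanned a narrower range of ratios than the receptors. Of the 4 kinases, 1 was lower past the fold, against 13.4% of all genes, and none was higher, against 5.84%. It was *Jak3*, at 1.63 FPKM in WT-vehicle and 1.11 FPKM in R6/1-vehicle (-0.53), while *Jak1* (0.22), *Jak2* (-0.14) and *Tyk2* (-0.18) were within the fold. The ratios of the 6 listed STAT genes ran from -0.16 to 0.50, and none was past the fold, beside the same shares of all genes. *Stat3*, the factor downstream of gp130, was at 15.1 and 16.4 FPKM (0.12). *Stat5b* was at 8.98 and 10.7 FPKM (0.25) and *Stat5a* at 0.673 and 0.688 FPKM (0.03). The data hold no measure of STAT phosphorylation.

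Of 12 other genes that STATs can induce, 1 was lower past the fold in R6/1-vehicle, against the 13.4% of all genes given above, and none was higher. The median log2 ratio of the list was -0.30, beside -0.019 over all genes. The 1 past the fold was *Junb*, an AP-1 factor that also responds to neuronal activity, at 56.5 FPKM in WT-vehicle and 27.7 FPKM in R6/1-vehicle (-1.03), and at 44.9 and 30.1 FPKM in the RGFP109 groups (-0.57). The list's median in the RGFP109 groups was -0.10, beside 0.000 over all genes.

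Other inhibitors of the pathway and the ligase that the SOCS box recruits stayed within the fold. None of 10 other JAK-STAT inhibitors, among them the phosphatases *Ptpn1*, *Ptpn2*, *Ptpn6* and *Ptpn11* and the PIAS genes, passed it in either direction in the vehicle groups, with ratios from -0.39 to 0.18. Of all genes 13.4% were lower past the fold and 5.84% higher. The shares were 9.04% and 2.48% of genes at 10 FPKM or more, and 11.9% and 5.85% of genes at 1 to 10 FPKM, where several of the inhibitors lay. The lists are short, and their difference from these shares was not tested. The 6 genes for ligase partners ranged from -0.20 to 0.31, with *Cul5* at 11 FPKM in WT-vehicle and 13.3 FPKM in R6/1-vehicle (0.26), elongin C (*Tceb1*) at 65.3 and 63.4 FPKM (-0.04) and elongin B (*Tceb2*) at 184 and 160 FPKM (-0.20). Over all 93 listed genes outside the family, 9 of the 85 compared were lower past the fold in R6/1-vehicle (10.6%) and 1 was higher (1.18%), beside the shares of all genes given above.

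**Figure D4:**
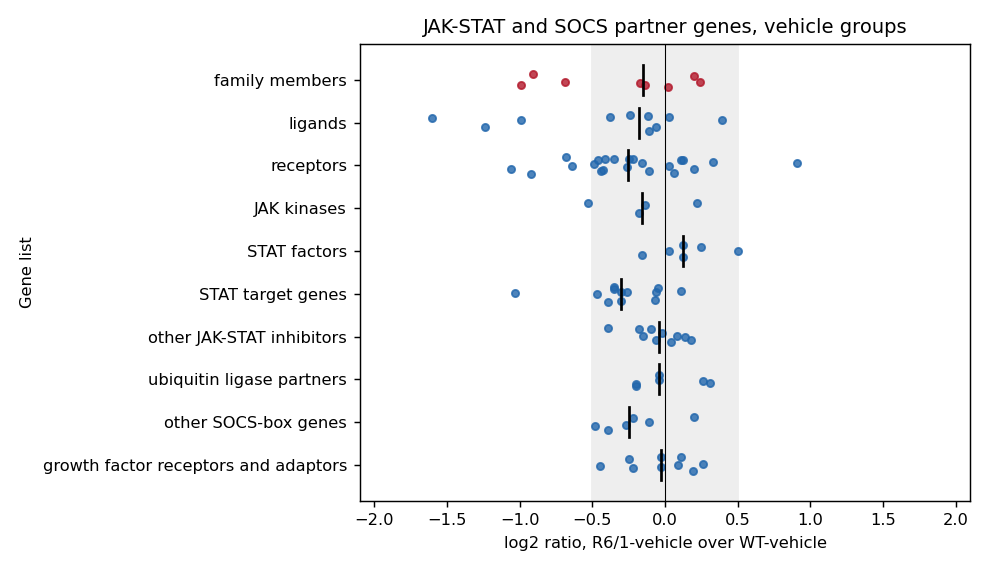
Log2 ratios of R6/1-vehicle over WT-vehicle for the family (red) and the genes of 9 lists (blue, 1 point per gene above 0 in both groups, spread vertically for legibility), with the median of each list as a black bar and the band from -0.5 to 0.5 shaded. The points of the family lie on both sides of 0 from -0.99 to 0.24, and the lists of other JAK-STAT inhibitors, ubiquitin ligase partners and other SOCS-box genes lie wholly inside the band.

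Markers of the tissue and of neighbouring cells also differed by genotype. Lower past the fold in R6/1-vehicle were 7 of 8 striatal projection neuron genes, against 13.4% of all genes. So were all 5 neocortical neuron genes, 4 of 5 oligodendrocyte, 5 of 6 choroid plexus and 1 of 5 endothelial genes. No astrocyte or microglia gene was. The summed level of the projection neuron genes was 3190 FPKM in WT-vehicle and 1230 in R6/1-vehicle, and 3070 and 1110 FPKM with RGFP109. The sums in the same order were 343, 189, 318 and 241 FPKM for 5 neocortical neuron genes and 4360, 2390, 3410 and 2710 FPKM for 5 oligodendrocyte genes. Sums of 5 astrocyte genes (392, 335, 398 and 328 FPKM), 6 microglia genes (114, 94.4, 113 and 91.7 FPKM) and 5 endothelial genes (29.9, 21.2, 25.8 and 20 FPKM) spanned less. No marker was at 0 in any group. In whole tissue fewer cells of a type and less RNA per cell cannot be told apart, and the part of these markers in the lower *Socs2*, *Socs3* and *Cish* values was not tested.

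Among genes with a mean of at least 1 FPKM, those whose levels over the 4 groups followed a member most closely were ranked by the Euclidean distance between their log2 levels after each gene was centred on its own mean. For *Cish* these were *Jph4* (distance 0.015), *Pmp22*, *Gdpd5*, *Agfg2* and *Klf16* (0.032). For *Socs2* they were *Zdhhc12* (0.034), *Rtn4rl2*, *Dmpk*, *Ttc9b* and *D7Ertd443e* (0.044). *Socs3* had more distant neighbours, *Baiap2l2* (0.082), *Cdkn1a*, *Nr4a1*, *Necab3* and *Dgkz* (0.11). Within a distance of 0.2 lay 552 genes for *Cish*, 256 for *Socs2* and 46 for *Socs3*, so with 4 pooled values per gene the patterns are shared by many genes. Inside the family, *Socs2* and *Cish* were 0.17 apart, *Socs2* and *Socs3* 0.29, *Socs4* and *Socs6* 0.15, and *Socs5* and *Socs7* 0.13.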

How the data were processed

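Single-end reads of striatal libraries were aligned by the authors to the RefSeq transcriptome of mm10 with STAR 2.5.0b, and FPKM values were computed with Cufflinks 2.2.1. Cuffdiff 2 then compared each pair of groups, and the authors deposited 6 tables with 1 pooled FPKM value per gene and group. Their columns of fold changes, test statistics, p-values and q-values were not used here. Cuffdiff scaled values within each pair, so a group differs between tables by near common factors, from 0.9623 to 1.036, and each ratio was taken within 1 table. Levels in 4 groups come from the vehicle and the RGFP109 tables, whose scales differ by 0.349%. Ratios were log2 after adding 0.05 FPKM, over genes above 0.1 FPKM in at least 1 group, and the code was tested on simulated data. Genes listed at 0 in 1 group (197 of 16972 in the vehicle groups) count in the shares of all genes and stay out of the gene lists. The text names all 8 members, in each list up to 4 genes past the fold in the vehicle groups by size (among receptors *Il11ra1* was added after its value was seen), and the 5 nearest genes for 3 members. Results of 2 genes of the lists are not reported here, and these genes are left out of the list counts. Other genes named were chosen after their values were seen. The members and lists were chosen with earlier results of these data known. The libraries were sequenced in 2 pools that each held all 4 groups, and pools could not be separated in pooled values. Coordinates are those of the deposited tables with 1 added to the start. Promoter sequences are from RefSeq (GRCm38.p6), and overlapping genes from GENCODE M21. The software was Python 3.11.15 with pandas 2.3.3, numpy 2.4.6 and matplotlib 3.10.9.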

Additional observations from a re-analysis of the deposited data

How the results depend on the processing

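The counts of members past the fold depended mostly on the pseudocount and the limit. At an absolute log2 ratio above 1, 0 members passed in each of the 5 comparisons. The shares of all genes there were 1.14% to 4.45% lower and 1.16% to 1.74% higher. Above 0.25, 5 members passed in R6/1-RGFP109 against WT-RGFP109, all lower, against 23.3% of all genes lower and 15.4% higher. In R6/1-RGFP109 against R6/1-vehicle 2 passed (*Socs1* lower, *Socs3* higher), against 7.63% of all genes lower and 6.23% higher. With 1 FPKM added, 0 members passed in each of those 2 comparisons. Of all genes 5.77% were lower and 1.91% higher in the first, and 1.07% and 1.13% in the second. In R6/1-RGFP109 against WT-vehicle 2 members (*Socs2* and *Cish*) passed, both lower, against 6.9% of all genes lower. With a mean FPKM of at least 1, *Socs1* and *Socs3* were filtered out of both comparisons of R6/1-RGFP109 with a vehicle group. Of the 6 members left, 0 passed in R6/1-RGFP109 against R6/1-vehicle, against 1.43% of genes lower and 1.57% higher. In R6/1-RGFP109 against WT-vehicle 2 passed, both lower, against 10.1% of genes lower. In R6/1-vehicle against WT-vehicle this filter left 2 of 6 members lower past the fold, *Socs2* and *Cish*, against 10.3% of genes. The same 2 members passed there with 1 FPKM added, against 7.01% of genes lower. Every other alternative (no pseudocount, no filter, centring on the median, and, chosen after seeing the data, only genes above 0 in both groups) left each count within 1.5 times. Of 96 member ratios under 3 of these alternatives, 86 moved by at most 0.1 and stayed on the same side of the limit, 10 moved further or crossed it, all with 1 FPKM added, and 0 changed sign among those past the fold. No replicate could be left out, and the precision that depth gives is unknown. No paired analysis was possible because each group has 1 pooled value.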

Other observations

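Other genes that carry a SOCS box, and the growth factor receptors and adaptors that SOCS proteins can bind, were compared in the same way. Of 6 other SOCS-box genes none passed the fold in the vehicle groups, against 13.4% of all genes lower and 5.84% higher. The one farthest from 0 was *Wsb2*, at 105 FPKM in WT-vehicle and 75.5 FPKM in R6/1-vehicle (log2 ratio -0.48). *Spsb1*, whose product targets inducible nitric oxide synthase, stood at 8.18 and 6.24 FPKM with vehicle (-0.39) and at 6.19 and 7.32 FPKM in WT-RGFP109 and R6/1-RGFP109 (0.24).

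Of 9 growth factor receptors and adaptors none was past the fold in the vehicle groups, against the same shares of all genes, with ratios from -0.45 to 0.26. The lowest ratio was that of the stem cell factor receptor *Kit*, at 9.82 FPKM in WT-vehicle and 7.15 FPKM in R6/1-vehicle. In the RGFP109 groups 1 of the 9 was lower past the fold, against 11.7% of all genes, and none was higher, against 5.39%. It was *Kit*, at 10.2 FPKM in wild type and 6.65 FPKM in R6/1 mice (-0.62). In R6/1-RGFP109 against WT-vehicle *Kit* was again the 1 of 9 past the fold (-0.56), against 13.8% of all genes lower. The insulin receptor *Insr* (8.05 and 8.59 FPKM in the vehicle groups) and the epidermal growth factor receptor *Egfr* (2.8 and 2.4 FPKM) were within the fold there. The adaptor *Grb2* was at 52.6 and 51.6 FPKM.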
